A study of Mus musculus with 10 samples.

Results

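The comparison sets 4 libraries of B lymphocytes in Phase II, the stage of division in culture that the labels call independent of mitogen, against 4 libraries of Phase I, the stage driven by mitogen, with divided and undivided cells balanced between them. These 8 of the 10 libraries of the series were chosen by their labels alone, and each phase holds 2 undivided and 2 divided libraries. The question is which transcripts differ between the phases once the difference between divided and undivided cells has been taken out. The title of the series names survivin, encoded by Birc5, in the G1 phase after mitosis.

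All cells were splenic B lymphocytes of C57BL/6 mice, an inbred laboratory strain, with no genetic change given in the labels. The Phase II group div12_48_u holds cells that had divided in Phase I, were then kept for 48 h with anti-CD40 antibody at 0.12 µg/ml, and did not divide again. The Phase II group div12_48_d holds cells of the same culture that divided again, separated from the first by cell sorting. Phase I cells were taken at 48 h, after a pulse with anti-IgM, which crosslinks the antigen receptor, and anti-CD40, which engages a receptor of the TNF receptor family. Those that had not divided form div0, and those that had divided form div12, the starting cells of Phase II. The undivided groups therefore differ in division history, since div12_48_u cells had divided before and div0 cells had not. Resting cells (naive) appear below only as a level to compare with. Each group has 2 libraries. The Phase I and naive replicates are independent pools of 4 to 5 mice, and nothing says whether the Phase II replicates came from separate pools, so p-values may measure a spread that is partly technical. Each RNA extraction used 500000 Phase II cells or 1000000 Phase I cells. Phase, the added 48 h of culture, the change of stimulus, the cell number and any batch cannot be told apart.

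A resting B cell enters the cell cycle when its antigen receptor and CD40 are engaged. D-type cyclins with their kinases then phosphorylate the retinoblastoma family and release E2F factors, which switch on replication genes, and the mitotic genes follow late in the cycle under the MuvB and B-MYB complexes. Survivin belongs to the chromosomal passenger complex, which corrects and completes chromosome segregation, and also to the inhibitor of apoptosis family. Without further stimulus, B cells leave the cycle, express quiescence factors such as KLF2 and FOXO proteins, or die through BH3-only proteins of the BCL2 family.

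The values are TPM, a length-corrected share of each library, summed here by gene symbol. Levels are given as TPM, and a phase mean ± SD spans 4 libraries of 2 groups (n = 4), so its SD includes the difference between divided and undivided cells. Differences are Phase II minus Phase I on the log2(TPM + 1) scale, which understates the change of low genes, with the standard error of the limma fit that holds division as a block. The words rise and fall are kept for genes with a Benjamini-Hochberg adjusted p under 0.05 over all 4153 genes tested (two-sided). In whole-population RNA, fewer cells of a type and less RNA per cell cannot be told apart. Members of near-identical families, such as Gbp2b, Bcl2a1a, Hbb-b1 and the histones, may hold reads of relatives.

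Of 4153 tested genes, 1574 differed between the phases (37.9%), 1071 higher in Phase II (25.8%) and 503 lower (12.1%). Most of these differences were small. The change was below 1.5-fold in 997 of the called genes and at least 2-fold in 183, of which 145 were higher in Phase II and 38 lower. When the test was made against a fold of 1.5, 80 genes were called (1.93%), 69 higher and 11 lower. The median difference over all tested genes was 0.09, and median-ratio scaling or quantile normalization lowered it by 0.10 or 0.11. Under median-ratio scaling the split became 746 higher and 858 lower, and under quantile normalization 722 higher and 835 lower. Of the called genes, 746 that rose and all 503 that fell kept their call under median-ratio scaling, against 713 and 494 under quantile normalization, and 0 changed sign under either. A small rise is therefore tied to the scaling, and counts under median-ratio scaling are given beside the lists they change most. The lowest of the 4 Phase II libraries was above the highest of the 4 Phase I libraries for 634 genes (15.3%), and the reverse held for 215 genes (5.18%), in all 849 genes (20.4%).

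**Figure D1:**
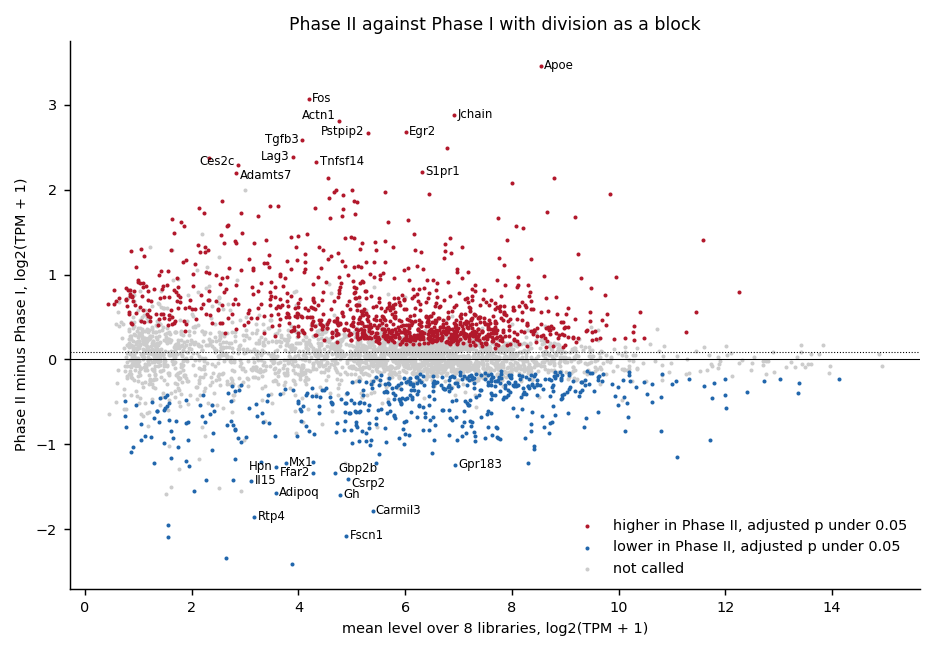
Difference between Phase II and Phase I (vertical axis, log2(TPM + 1), division as a block) against the mean level over the 8 libraries (horizontal axis, log2(TPM + 1)) for 4153 genes. Red points are the 1071 genes higher in Phase II, blue points the 503 lower, grey points were not called, and the dotted line marks the median difference of 0.09.

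Apoe, the gene of apolipoprotein E, a lipid carrier, showed the largest rise among the genes with at least 10 TPM and separate libraries. It had 693 and 1169 TPM in div12_48_u and 258 and 586 TPM in div12_48_d, against 108 and 96.7 TPM in div0 and 25.5 and 28.7 TPM in div12. Every Phase II library exceeded every Phase I library, as this ranking required. The naive libraries, with 655 and 968 TPM, lay in the Phase II range. The difference was 3.46 ± 0.27, an 11-fold change (adjusted p = 0.000145).

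Egr2, a zinc-finger transcription factor induced by antigen receptor signals, was the most even of these rises. It had 119 and 108 TPM in div12_48_u and 114 and 101 TPM in div12_48_d, against 23 and 15.8 TPM in div0 and 13.0 and 15.0 TPM in div12. The Phase II libraries lay close together and far above Phase I, by 2.68 ± 0.13 or 6.41-fold (adjusted p = 3.29e-05). Fos, a subunit of the AP-1 transcription factor, rose by 3.07 ± 0.49 (adjusted p = 0.00226), although its Phase II libraries spread from 11 to 57.3 TPM, against 1.25 to 3.74 TPM in Phase I. Actn1, a crosslinker of actin filaments, had 46.0 ± 18.2 TPM in Phase II and 5.94 ± 3.20 TPM in Phase I (2.80 ± 0.34, adjusted p = 0.000716). S1pr1, the receptor for sphingosine 1-phosphate that lets lymphocytes leave lymphoid organs, had 137 and 195 TPM in div12_48_u and 64.9 and 114 TPM in div12_48_d, against 46.6 and 43.2 TPM in div0 and 14 and 13.2 TPM in div12. Its rise was 2.21 ± 0.21 (adjusted p = 0.000313), and its naive level, 852 and 556 TPM, was higher than in any of the 8 libraries.

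The other genes among the 12 largest rises were Jchain (2.88 ± 0.74), which joins the units of polymeric IgM and IgA, Pstpip2 (2.66 ± 0.49), an adaptor of the actin cytoskeleton, Tgfb3 (2.58 ± 0.45), a TGF-beta ligand, Lag3 (2.39 ± 0.27), an inhibitory receptor of lymphocytes, Tnfsf14 (2.32 ± 0.26), the TNF family ligand LIGHT, Ces2c (2.29 ± 0.32), a carboxylesterase, and Adamts7 (2.20 ± 0.49), a secreted metalloprotease. Several of them were highest in the cells that divided again. Tnfsf14 had 14.7 and 10.3 TPM in div12_48_u and 64.0 and 45.5 TPM in div12_48_d, against 2.80 and 3.18 TPM in div0 and 5.07 and 7.83 TPM in div12.

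Fscn1, which encodes the actin-bundling protein fascin, showed the largest fall among the genes with at least 10 TPM and separate libraries. It had 12.5 and 7.91 TPM in div12_48_u and 14.9 and 6.79 TPM in div12_48_d, against 35.2 and 48.9 TPM in div0 and 63.4 and 40.4 TPM in div12. All Phase II libraries were below all Phase I libraries, as this ranking required. They were nearer to the naive level of 6.02 and 5.96 TPM, and the difference was -2.08 ± 0.26 (adjusted p = 0.000834). Carmil3, a regulator of actin capping protein, had 18.1 ± 5.78 TPM in Phase II and 63.7 ± 12 TPM in Phase I (-1.78 ± 0.20, adjusted p = 0.000512). Gpr183, the oxysterol receptor EBI2 that positions B cells at the edges of follicles, had 89.4 and 94.4 TPM in div12_48_u and 61.5 and 47.0 TPM in div12_48_d, against 178 and 171 TPM in div0 and 168 and 158 TPM in div12. Its Phase I values were nearly the same in divided and undivided cells, and it fell by 1.25 ± 0.14 (adjusted p = 0.000545). Il15, a cytokine that sustains lymphocytes, had 3.72 ± 1.18 TPM in Phase II and 11.6 ± 2.50 TPM in Phase I (-1.44 ± 0.15, adjusted p = 0.000423).

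Of the 12 largest falls, Rtp4 (-1.86 ± 0.26), Gbp2b (-1.34 ± 0.18) and Mx1 (-1.23 ± 0.17) are interferon-induced genes and are described with that group. The others were Gh (-1.60 ± 0.17), growth hormone, Adipoq (-1.57 ± 0.16), the hormone adiponectin, Csrp2 (-1.41 ± 0.13), a LIM domain protein, Ffar2 (-1.34 ± 0.30), a receptor for short-chain fatty acids, and Hpn (-1.27 ± 0.19), the membrane protease hepsin. Gh and Adipoq are better known from the pituitary and from fat. Gh had 12.5 ± 5.33 TPM in Phase II and 40.3 ± 16.8 TPM in Phase I, and Adipoq 5.05 ± 1.2 TPM in Phase II and 16.9 ± 2.67 TPM in Phase I. Naive cells held 15.6 and 22.3 TPM of Gh and 0.360 and 0.370 TPM of Adipoq.

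**Figure D2:**
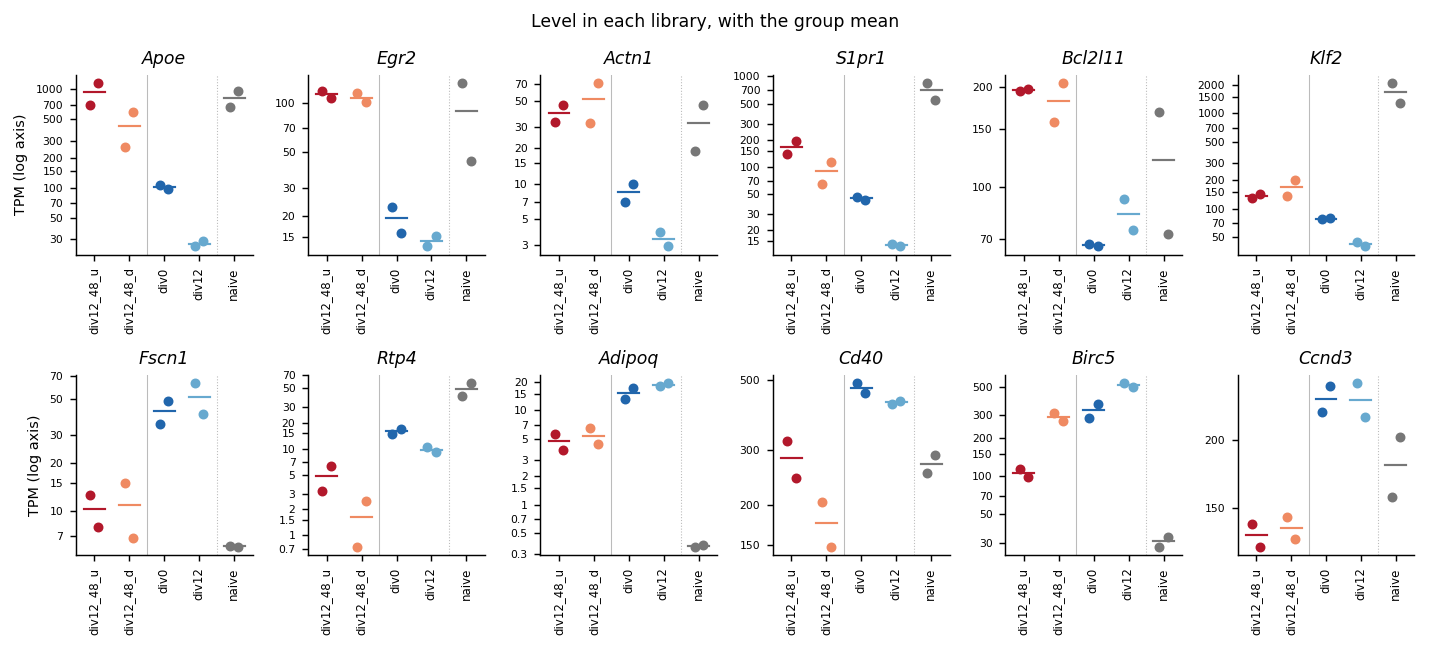
TPM (log axis) of 12 genes in each library, by group, with a horizontal line at the group mean of 2 libraries. The full vertical line separates Phase II (left) from Phase I and the dotted line sets off the naive group. The first 6 genes were higher in Phase II with no overlap, and of the last 6 only Birc5 overlapped between the phases.

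The tested genes of mitosis were lower in Phase II with near uniformity. Of 20 tested members of the mitotic (G2/M) list, 19 fell and 0 rose, with a median of -0.83 against 0.09 over all tested genes. The deposited values hold only 20 of the 58 genes of this list and 26 of 56 of the G1/S list. They hold 35 of 68 for oxidative phosphorylation, 22 of 79 for ribosomal proteins and 6 of 34 for the proteasome. Counts for such lists describe the members present and not the whole pathway. Birc5, which encodes survivin (chromosome 11, 117849237 to 117855743, GRCm38.p6), had 113 and 98.5 TPM in div12_48_u and 317 and 272 TPM in div12_48_d, against 287 and 372 TPM in div0 and 540.0 and 505 TPM in div12. It fell by 1.22 ± 0.17 (adjusted p = 0.00119), but the ranges overlapped, since Phase II cells that divided again held about as much as Phase I cells that had not divided. All 4 Phase II libraries stayed above the naive level of 27.9 and 33.4 TPM. Within undivided cells the difference was -1.62 ± 0.14 and within divided cells -0.83 ± 0.14, and the difference between these, -0.79 ± 0.20, did not pass (adjusted p = 0.115).

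All 3 tested members of the chromosomal passenger complex fell, survivin and 2 of its partners. Aurkb, its kinase, had 114 ± 46.7 TPM in Phase II and 182 ± 44.9 TPM in Phase I (-0.73 ± 0.19, adjusted p = 0.0178). Incenp, its scaffold, had 155 ± 56.9 TPM in Phase II and 234 ± 57.4 TPM in Phase I (-0.64 ± 0.20, adjusted p = 0.0335). The Incenp call was lost without div12_48_u replicate 1 (adjusted p = 0.0633) or 2 (0.0684), div0 replicate 1 (0.0692) or 2 (0.0876), or div12 replicate 1 (0.0857). Mki67, which coats mitotic chromosomes and marks cycling cells, had 339 ± 170.3 TPM in Phase II and 522 ± 141 TPM in Phase I (-0.74 ± 0.20, adjusted p = 0.0195). By group mean, div12_48_u was the lowest of the 4 groups and div12 the highest for Birc5, Aurkb and Mki67.

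The largest falls of the mitotic list were those of Bub1 (-1.0 ± 0.19), a kinase of the spindle checkpoint, Cenpf (-0.97 ± 0.18), a protein of the outer kinetochore, Tpx2 (-0.96 ± 0.17), which nucleates spindle microtubules, and Ccnb2 (-0.92 ± 0.19), a B-type cyclin. Only Cenpf had separate libraries, with 28.4 and 18.1 TPM in div12_48_u and 45.8 and 42.2 TPM in div12_48_d, against 48.4 and 63.5 TPM in div0 and 81.1 and 63.6 TPM in div12. Ccnb2 had 85.3 and 58.1 TPM in div12_48_u and 199 and 187 TPM in div12_48_d, against 164 and 198 TPM in div0 and 289.9 and 258 TPM in div12. As for Birc5, its div12_48_d values lay in the range of div0. The typical member of the list, as the median over members of the level relative to the mean of the 8 libraries, stood at -0.76 and -1.27 in div12_48_u and 0.27 and 0.11 in div12_48_d, against -0.02 and 0.35 in div0 and 0.82 and 0.53 in div12. This typical level was lower in Phase II within undivided cells and within divided cells, and the pooled phases overlapped. Gene by gene, divided cells alone did not pass for Ccnb2 (adjusted p = 0.0743), Bub1 (0.0575), Cenpf (0.0558), Aurkb (0.245), Mki67 (0.279) or Incenp (0.381), while Birc5 and Tpx2 passed in each stratum.

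A promoter feature that the lists did not use was common in mitotic genes, and is given for replication genes below. The CCAAT box (CCAAT on either strand), a site bound by the factor NF-Y, was found within 250 bases before the start in 17 of 18 promoter windows of the list (94.4%; windows for 16 genes), against 34.1% of 4285 windows of tested genes and 33.8% of all 32851 windows of RefSeq genes. The 150 bases before the start follow for 2 of the mitotic genes with the largest falls, as examples of windows with the box, and for Birc5, which is not in that list, because the series is about survivin. They are RefSeq sequence of GRCm38.p6, each on the strand of its gene, and capitals mark CCAAT or its reverse complement.
Ccnb2 (chr9:70421555-70421704, minus strand): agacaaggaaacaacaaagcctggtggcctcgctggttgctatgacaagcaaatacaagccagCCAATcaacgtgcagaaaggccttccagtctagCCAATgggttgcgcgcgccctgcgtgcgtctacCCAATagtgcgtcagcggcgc
Bub1 (chr2:127831860-127832009, minus strand): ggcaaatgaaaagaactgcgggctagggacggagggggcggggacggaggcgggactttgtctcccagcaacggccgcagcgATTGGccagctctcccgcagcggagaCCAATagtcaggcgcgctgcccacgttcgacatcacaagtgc
Birc5 (chr11:117849087-117849236, plus strand): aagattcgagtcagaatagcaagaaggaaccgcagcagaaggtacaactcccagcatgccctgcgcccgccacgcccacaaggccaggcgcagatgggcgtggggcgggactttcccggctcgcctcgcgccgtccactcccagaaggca
Ccnb2 holds 3 such boxes in this stretch and Bub1 holds 2, one on each strand, while these letters are not in the stretch shown for Birc5. The CHR element (TTTGAA or TTCGAA on either strand), a site of the MuvB complexes, was in 7 of the 18 windows (38.9%). Over tested genes it was in 12.3% of windows. The E2F motif TTTNNCGC was in 1 of the 18 (5.56%), against 6.93% over tested genes.

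Replication genes fell in step, with 23 of 26 tested members of the G1/S list lower and 0 higher (26 lower under median-ratio scaling) and a median of -0.57. Uhrf1, which carries DNA methylation through replication, had 158 and 119 TPM in div12_48_u and 332 and 308 TPM in div12_48_d, against 314 and 411 TPM in div0 and 621 and 457 TPM in div12 (-1.06 ± 0.17, adjusted p = 0.00244). Lig1, the ligase that joins Okazaki fragments, fell by 0.93 ± 0.15, and Gmnn, the licensing inhibitor geminin, by 0.91 ± 0.10. Rrm2, a subunit of ribonucleotide reductase, fell by 0.84 ± 0.17. For these 4 genes the libraries of the phases overlapped, and the difference was negative both within undivided and within divided cells. The list of DNA repair and checkpoint genes had 9 members lower and 1 higher of 17 (13 and 0 under median-ratio scaling), and Chek1, a checkpoint kinase, fell by 0.86 ± 0.13. The E2F motif TTTNNCGC was in 6 of 27 windows of the G1/S list (22.2%), against 6.93% of windows of tested genes. The CCAAT box was in 16 of the 27 (59.3%, against 34.1%) and the CHR element in 4 (14.8%, against 12.3%).

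The genes that govern entry into the cycle did not move as a block. Of 11 tested D cyclins, pocket proteins and their kinases, 5 fell and 2 rose, against 12.1% and 25.8% of all tested genes. Ccnd3, a D-type cyclin, had 139.8 and 127 TPM in div12_48_u and 144 and 131 TPM in div12_48_d, against 224 and 251 TPM in div0 and 254 and 219.9 TPM in div12. Its libraries were separate and close within each phase, whether divided or not, and it fell by 0.80 ± 0.07 (adjusted p = 0.000223). Ccnd1 also fell (-1.06 ± 0.16, adjusted p = 0.00179), at a low level of 2.47 ± 1.11 TPM in Phase II and 5.98 ± 0.624 TPM in Phase I. Ccnd2, the third D cyclin, had 188 ± 18.1 TPM in Phase II and 185 ± 36.6 TPM in Phase I (0.04 ± 0.13, adjusted p = 0.844), a value whose sign turned under both scalings and without single libraries. Among pocket proteins, Rb1, the retinoblastoma protein, rose by 0.61 ± 0.09 (adjusted p = 0.00190), with 169.6 and 155 TPM in div12_48_u and 113 and 147 TPM in div12_48_d, against 106 and 94.3 TPM in div0 and 91.0 and 86.1 TPM in div12. Its relative Rbl1 (p107), itself linked to replication, fell by 0.68 ± 0.13 (adjusted p = 0.00459). Myc, a driver of growth, had 188 ± 17.0 TPM in Phase II and 169 ± 32.2 TPM in Phase I (0.17 ± 0.12, adjusted p = 0.307). The list of ribosome assembly genes linked to Myc had 1 member higher and 2 lower of 14 (0 higher and 7 lower under median-ratio scaling). The rise was that of Odc1, an enzyme of polyamine synthesis and not of ribosome assembly (0.35, adjusted p = 0.0341). None of the 14 was called without div12_48_u replicate 1, div12_48_d replicate 2, div0 replicate 1 or div12 replicate 1. The falls were lost without div12_48_u replicate 2 or div0 replicate 2, and the rise without div12_48_d replicate 1 or div12 replicate 2.

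Inhibitors of cyclin-dependent kinases rose, in 3 of 4 tested members with 0 lower. Cdkn1b (p27), which holds resting lymphocytes out of the cycle, had 149.5 ± 19.8 TPM in Phase II and 118 ± 8.46 TPM in Phase I (0.33 ± 0.07, adjusted p = 0.00802). Cdkn2a, the locus of p16 and ARF, had 4.17 and 4.91 TPM in div12_48_u and 57.0 and 45.5 TPM in div12_48_d, against 2.08 and 4.30 TPM in div0 and 7.59 and 8.90 TPM in div12. The high values were those of the cells that divided again, and the div12_48_u values lay in the range of Phase I. Its rise of 1.47 ± 0.39 (adjusted p = 0.0188) lost the call without div12_48_d replicate 2 (adjusted p = 0.0559) or div12 replicate 1 (0.0515). Cdkn2b (p15), its neighbour on chromosome 4, rose by 0.96 ± 0.21 (adjusted p = 0.00760) with the same order of groups. None of the 3 passed both in undivided and in divided cells. Cdkn1b did not pass in divided cells alone (adjusted p = 0.0853). Cdkn2a (0.225) and Cdkn2b (0.0828) did not pass in undivided cells alone.

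Quiescence regulators of lymphocytes rose in 12 of 19 tested members, with 0 lower (9 and 1 under median-ratio scaling), and a median of 0.37. Klf2, a transcription factor that keeps lymphocytes at rest and drives S1pr1, had 129 and 144 TPM in div12_48_u and 135 and 201 TPM in div12_48_d, against 78.3 and 79.4 TPM in div0 and 45.2 and 40.3 TPM in div12. All Phase II values were higher (1.36 ± 0.23, adjusted p = 0.00283), but far below the naive level of 2103 and 1292 TPM. Pik3ip1, a membrane inhibitor of PI3 kinase, had 75.9 ± 26.0 TPM in Phase II and 24.0 ± 8.50 TPM in Phase I (1.62 ± 0.16, adjusted p = 0.000341). Tsc1, a brake on mTORC1, rose by 0.50 ± 0.08 (adjusted p = 0.00197).

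**Figure D3:**
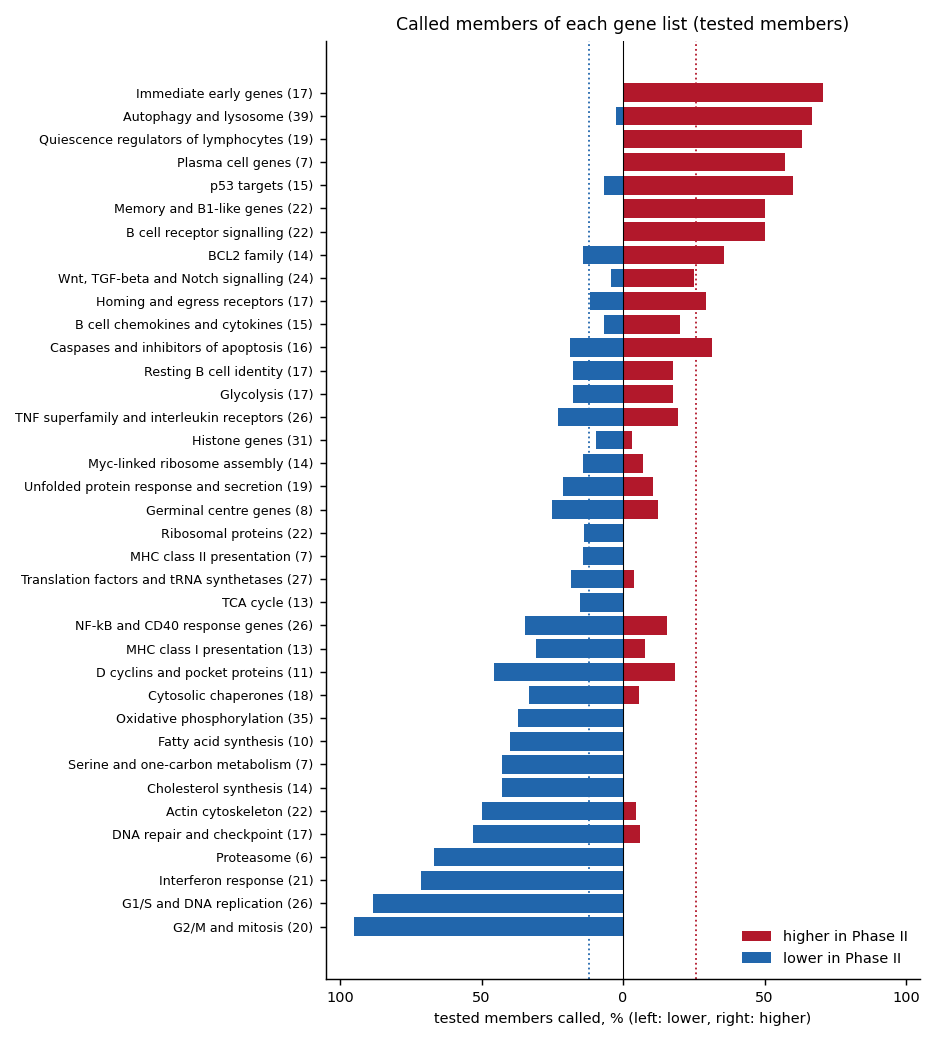
Share of tested members that were called higher (red, right) or lower (blue, left) in Phase II, for each gene list with at least 5 tested members, the number tested in parentheses. Dotted lines mark the shares over all tested genes, 25.8% higher and 12.1% lower. Among the lists drawn, immediate early genes reach furthest to the right and mitotic genes furthest to the left.

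Immediate early genes, the first genes switched on by receptor signals, were mostly higher in Phase II. In this list 12 of 17 tested members rose and 0 fell (11 and 0 under quantile normalization), with a median of 1.05. Egr1, a partner of Egr2, had 691 and 466 TPM in div12_48_u and 218 and 251 TPM in div12_48_d, against 219 and 88.1 TPM in div0 and 34.5 and 78.1 TPM in div12. One div0 library overlapped with div12_48_d, and the rise was 2.08 ± 0.32 (adjusted p = 0.00201). Nr4a3, an orphan nuclear receptor induced by antigen receptor signals, had 10.6 ± 1.83 TPM in Phase II and 2.57 ± 0.885 TPM in Phase I (1.72 ± 0.19, adjusted p = 0.000545). Naive cells held 970.4 and 1702 TPM of Fos, far more than any of the 8 libraries.

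Components of the antigen receptor pathway were higher in 11 of 22 tested members and lower in 0, with a median of 0.20. The share of rises over all tested genes was 25.8%. Under median-ratio scaling 4 rose and 1 fell, with a median of 0.09. That share of rises was near the 746 of 4153 over all genes under the same scaling. Under quantile normalization 11 rose and 1 fell. The count of rises was 6 without div12_48_u replicate 1 or div0 replicate 2 and 7 without div12_48_d replicate 2. Nfatc1 and Pik3cd changed most. Nfatc1, a calcium-dependent transcription factor, had 627 and 593 TPM in div12_48_u and 485 and 766 TPM in div12_48_d, against 231 and 239 TPM in div0 and 164 and 120.4 TPM in div12 (1.74 ± 0.19, adjusted p = 0.000512). Pik3cd, the catalytic subunit of the PI3 kinase of lymphocytes, had 515 ± 65.4 TPM in Phase II and 262 ± 46.5 TPM in Phase I (0.98 ± 0.11, adjusted p = 0.000538). Both also exceeded their Phase I level in every Phase II library. Btk, a kinase downstream of the receptor, rose by 0.40 ± 0.10 (adjusted p = 0.0137) but was not called under median-ratio scaling.

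CD40 and NF-kB response genes fell more often than they rose, with 9 of 26 tested members lower and 4 higher. The shares over all tested genes were 12.1% lower and 25.8% higher. Under median-ratio scaling 11 fell and 2 rose, and 2 rose without div12_48_u replicate 1 or div12_48_d replicate 2. The median of 0.07 turned to -0.04 under median-ratio scaling. The called falls included the receptor itself. Cd40 had 319.7 and 245 TPM in div12_48_u and 205 and 148 TPM in div12_48_d, against 489 and 455 TPM in div0 and 419.5 and 429.8 TPM in div12. Every Phase II library was lower, those of div12_48_d the lowest, and the fall was 1.02 ± 0.15 (adjusted p = 0.00149). Traf1, an adaptor of TNF family receptors induced by NF-kB, fell by 0.80 ± 0.10 (adjusted p = 0.000755). Slamf1, a co-receptor of lymphocytes, had 48.5 and 40.5 TPM in div12_48_u and 17.2 and 13.9 TPM in div12_48_d, against 66.0 and 59.4 TPM in div0 and 56.2 and 52.8 TPM in div12 (-1.12 ± 0.24, adjusted p = 0.00736). Fas, the death receptor, fell by 0.79 ± 0.18 (adjusted p = 0.00979). Fcer2a (CD23), a low-affinity IgE receptor of follicular B cells, fell by 1.15 ± 0.15 (adjusted p = 0.00101), with 1416 ± 552 TPM in Phase II and 2973 ± 309 TPM in Phase I.

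Interferon response genes were lower in Phase II in 15 of 21 tested members and higher in 0 (17 and 0 under median-ratio scaling), with a median of -0.42. In 13 of the 21 members all Phase II libraries were below all Phase I libraries, against 5.18% of all tested genes. Rtp4, a chaperone of G protein-coupled receptors induced by interferon, had 3.21 and 6.36 TPM in div12_48_u and 0.743 and 2.52 TPM in div12_48_d, against 14.9 and 16.9 TPM in div0 and 10.5 and 9.10 TPM in div12 (-1.86 ± 0.26, adjusted p = 0.00134). Ifit2, which binds viral RNA, had 4.87 and 5.6 TPM in div12_48_u and 5.14 and 4.18 TPM in div12_48_d, against 12.8 and 12.5 TPM in div0 and 12.4 and 13.1 TPM in div12. Its level thus followed phase and was alike in divided and undivided cells (-1.21 ± 0.10, adjusted p = 0.000164). Mx1, an antiviral GTPase, had 7.26 ± 2.28 TPM in Phase II and 17.8 ± 0.178 TPM in Phase I. Gbp2b, a guanylate-binding protein, differed from these in that its naive level was near 0 (0.153 and 0.236 TPM), against 13.2 ± 3.62 TPM in Phase II and 36.0 ± 14.1 TPM in Phase I. Rtp4, Ifit2 and Mx1 were highest in naive cells.

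The interferon-stimulated response element, searched as GAAA, any 2 bases and GAAA again on either strand, was in 8 of 21 promoter windows of the interferon list (38.1%), against 2.94% of windows of tested genes. The promoters of Isg15, a ubiquitin-like modifier that fell by 0.80 ± 0.11 (adjusted p = 0.00150), and of Gbp2b are shown as examples, with the matches in capitals (3 that overlap in Isg15 and 1 on the opposite strand in Gbp2b).
Isg15 (chr4:156200819-156200968, minus strand): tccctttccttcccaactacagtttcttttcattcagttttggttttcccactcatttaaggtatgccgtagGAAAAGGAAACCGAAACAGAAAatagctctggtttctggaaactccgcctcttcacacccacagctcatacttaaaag
Gbp2b (chr3:142594697-142594846, plus strand): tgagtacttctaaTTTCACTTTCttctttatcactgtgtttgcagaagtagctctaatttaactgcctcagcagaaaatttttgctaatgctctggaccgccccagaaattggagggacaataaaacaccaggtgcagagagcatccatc
A match describes these letters and is not evidence of binding. Of the 8 genes with a match, Gbp2, Gbp2b, Gbp5, Irgm1 and Isg15 fell, and Gbp3, Socs1 and Stat2 were not called.

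**Figure D4:**
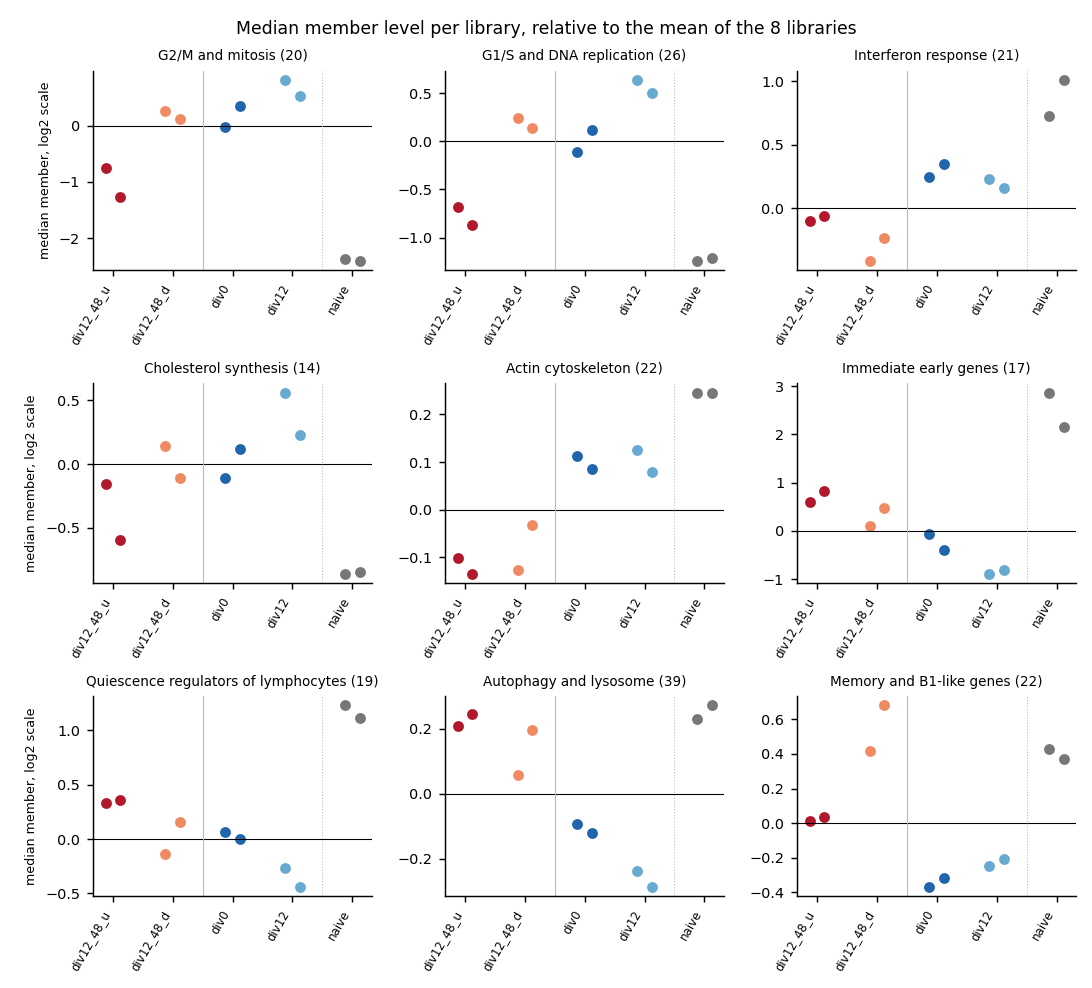
Median member level of 9 gene lists in each library, on the log2(TPM + 1) scale relative to the mean of the 8 libraries, with the number of tested members in parentheses. Full vertical lines separate Phase II (left) from Phase I and dotted lines set off the naive group. Interferon, actin, immediate early, autophagy, and memory and B1-like lists were apart between the phases in all 8 libraries. In the mitotic and replication lists div12_48_d stood near or above div0.

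Regulators of cell death moved in both directions. In the BCL2 family 5 of 14 tested members rose and 2 fell (4 and 5 under median-ratio scaling), with a median of -0.02. The rises were led by BH3-only proteins, which start the mitochondrial pathway of death. Bcl2l11 (BIM) had 195 and 198 TPM in div12_48_u and 157 and 206 TPM in div12_48_d, against 67.4 and 66.3 TPM in div0 and 92.2 and 74.3 TPM in div12. All Phase II libraries were at least 157 TPM and all Phase I libraries at most 92.2 TPM (1.33 ± 0.12, adjusted p = 0.000249). Bbc3 (PUMA) had 66.9 ± 11.9 TPM in Phase II and 29.8 ± 6.36 TPM in Phase I (1.15 ± 0.08, adjusted p = 8.86e-05), and Bmf rose by 0.72 ± 0.10 (adjusted p = 0.00108). Bid, a BH3-only protein cut by caspase-8, went against these, with 415 ± 32.6 TPM in Phase II and 643 ± 57.8 TPM in Phase I (-0.63 ± 0.07, adjusted p = 0.000450). Among caspases and inhibitors of apoptosis 5 of 16 rose and 3 fell (3 and 4 under median-ratio scaling). These shares are not far from the 25.8% and 12.1% of all genes. The rises numbered 3 without div12_48_u replicate 1, div12_48_d replicate 2, div0 replicate 1 or div12 replicate 2. Casp4, the inflammatory caspase-11 of mice, led the rises (0.88 ± 0.06, adjusted p = 0.000119). Of the p53 targets, 9 of 15 rose and 1 fell (6 and 1 under median-ratio scaling), Bbc3 and Trp53inp1 (0.73 ± 0.12), a promoter of autophagy and death, having the largest rises and Fas being the one that fell.

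Genes of antibody-secreting cells rose in 4 of 7 tested members and fell in 0, against 25.8% and 12.1% of all tested genes. The deposited values hold 8 of the 20 genes listed. Their summed level overlapped, with 1767 to 2384 TPM in Phase II and 1628 to 2135 TPM in Phase I. One rise was that of Cd28, a T cell marker as well, at only 1.27 to 2.53 TPM in Phase II and 0.158 to 0.333 TPM in Phase I. Prdm1 (BLIMP1), the transcription factor that drives plasma cell differentiation, had 8.38 and 8.26 TPM in div12_48_u and 8.69 and 15.9 TPM in div12_48_d, against 4.12 and 4.58 TPM in div0 and 1.95 and 1.70 TPM in div12. All Phase II values were above all Phase I values (1.49 ± 0.29, adjusted p = 0.00512), at a level near that of naive cells (19.4 and 7.86 TPM). Sdc1 (CD138), a plasma cell surface marker, had 16.6 ± 10.1 TPM in Phase II and 3.43 ± 0.554 TPM in Phase I (1.81 ± 0.35, adjusted p = 0.00501). Jchain reached 378 and 464 TPM in div12_48_d and 24.5 and 31.1 TPM in div12_48_u, against 14.1 and 16.6 TPM in div0 and 8.10 and 19.5 TPM in div12. Its high level was that of the cells that divided again (adjusted p = 0.0171 for the phase difference).

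Memory and B1-like genes, markers of long-lived or innate-like B cells, rose in 11 of 22 tested members with 0 lower (9 and 1 under median-ratio scaling). The shares over all tested genes were 25.8% and 12.1%. Like the other lists, this one was chosen with earlier results of these data known, so its count is no independent result. Bhlhe41, a transcriptional repressor needed for B1a cells, had 45.0 and 43.1 TPM in div12_48_u and 102 and 126 TPM in div12_48_d, against 12.8 and 15.6 TPM in div0 and 21.0 and 21.5 TPM in div12. The groups did not overlap in either pair (1.97 ± 0.16, adjusted p = 0.000163). Plac8 had 1469 ± 595 TPM in Phase II and 358 ± 51.9 TPM in Phase I (1.95 ± 0.28, adjusted p = 0.00162). Cd5, a receptor that dampens antigen receptor signals, had 28.5 and 28.5 TPM in div12_48_u and 70.4 and 74.7 TPM in div12_48_d, against 13.3 and 14.7 TPM in div0 and 22.3 and 23.2 TPM in div12 (1.30 ± 0.13, adjusted p = 0.000358). Ctla4, an inhibitory receptor, rose by 1.87 ± 0.51 (adjusted p = 0.0215), a call lost without div12_48_d replicate 1 (adjusted p = 0.0534), div12 replicate 1 (0.0584) or div12 replicate 2 (0.0546). Efnb1, the ephrin ligand ephrin-B1, was the single germinal centre gene of 8 that rose (1.40 ± 0.18, adjusted p = 0.000951), and 2 fell.

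Receptors for homing and egress rose in 5 of 17 tested members and fell in 2, a share of rises near the 25.8% of all genes. Beside S1pr1, Cxcr4, the receptor for CXCL12, had 143 and 158 TPM in div12_48_u and 176 and 182 TPM in div12_48_d, against 56.9 and 77.0 TPM in div0 and 60.3 and 50.1 TPM in div12 (1.43 ± 0.14, adjusted p = 0.000286). The naive level, 2482 and 1923 TPM, was far above both phases. S1pr3, a second receptor for sphingosine 1-phosphate, rose by 1.43 ± 0.22 (adjusted p = 0.00220), with 61.0 and 78.4 TPM in div12_48_u and 16.5 and 17.9 TPM in div12_48_d, against 16.2 and 17.2 TPM in div0 and 10.5 and 7.61 TPM in div12. Its high values were those of undivided Phase II cells, the opposite order from Jchain. Among chemokines and cytokines 3 of 15 rose and 1 fell (3 and 4 under median-ratio scaling), with Ccl4, a chemokine, rising by 1.90 ± 0.37 (adjusted p = 0.00544). Ccl4 had 65.3 and 69.3 TPM in div12_48_d and 10.5 and 10.2 TPM in div12_48_u, against 5.99 and 3.96 TPM in div0 and 6.15 and 11.4 TPM in div12. Of TNF family members and interleukin receptors, 5 of 26 rose and 6 fell, and Il2rb, the beta chain shared by the receptors for interleukins 2 and 15, rose by 1.23 ± 0.18 (adjusted p = 0.00146). Among genes of Wnt, TGF-beta and Notch signalling 6 of 24 rose and 1 fell (4 and 4 under median-ratio scaling). In the chemokine, TNF family and Wnt lists the share of rises was thus not above the 25.8% of all genes. Wnt10a, a Wnt ligand, rose by 0.97 ± 0.14 (adjusted p = 0.00164). It had 370.1 ± 101 TPM in Phase II and 183 ± 26.6 TPM in Phase I, and was near absent in naive cells (4.85 and 7.17 TPM).

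Genes of autophagy and lysosomes rose in 26 of 39 tested members and fell in 1 (20 and 3 under median-ratio scaling). The median was 0.35, and 19 members were higher in Phase II with no overlap between the phases. Over all tested genes 25.8% rose and 15.3% were higher with no overlap. Gabarapl1, a protein of the autophagosome membrane, had 45.3 and 46.9 TPM in div12_48_u and 46.0 and 48.8 TPM in div12_48_d, against 27.0 and 28.0 TPM in div0 and 27.8 and 29.0 TPM in div12. It followed phase alone, with divided and undivided cells within 3 TPM of each other in group mean (0.72 ± 0.06, adjusted p = 0.000201). Gaa, the lysosomal enzyme that breaks down glycogen, had 99.8 ± 20.6 TPM in Phase II and 46.5 ± 12.2 TPM in Phase I (1.10 ± 0.12, adjusted p = 0.000545). Map1lc3a, a relative of Gabarapl1, rose by 0.98 ± 0.17 (adjusted p = 0.00290). The E-box CACGTG, the core of sites for MYC and TFEB family factors, was in 9 of 34 promoter windows of the list (26.5%). Over tested genes it was in 8.19% of windows. The longer CLEAR core TCACGTGA was in 4 of the 34 (11.8%), against 1.47% over tested genes.

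Genes of the actin cytoskeleton were lower in 11 of 22 tested members and higher in 1, and all 11 had separate libraries. Over all tested genes 12.1% fell and 5.18% were lower with separate libraries. Flna, which crosslinks actin, had 314 and 267 TPM in div12_48_u and 264 and 292 TPM in div12_48_d, against 525 and 511 TPM in div0 and 514 and 427 TPM in div12 (-0.79 ± 0.08, adjusted p = 0.000354). Ezr, which ties actin to the membrane, had 406 ± 38.2 TPM in Phase II and 565 ± 76.9 TPM in Phase I (-0.47 ± 0.08, adjusted p = 0.00300). Actn1, described above, was the one that rose. Divided and undivided cells were close to each other within each phase for Flna and Ezr.

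Among metabolic lists, calls were mostly falls, glycolysis apart, and many members were not called. For comparison, 12.1% of all tested genes fell and 25.8% rose. Cholesterol synthesis genes fell in 6 of 14 tested members and rose in 0 (11 and 0 under median-ratio scaling). Idi1, isopentenyl diphosphate isomerase, led these falls (-0.74 ± 0.15, adjusted p = 0.00622). It had 116 ± 43.8 TPM in Phase II and 187 ± 38.5 TPM in Phase I. The SRE-1 motif TCACNCCAC was in 0 of 10 promoter windows of this list, against 1.10% of windows of tested genes. Fatty acid synthesis genes fell in 4 of 10 (7 under median-ratio scaling), among them Scd1, a desaturase, with 647 and 595 TPM in div12_48_u and 387 and 435 TPM in div12_48_d, against 825 and 918 TPM in div0 and 879 and 656 TPM in div12 (-0.69 ± 0.12, adjusted p = 0.00297). Oxidative phosphorylation genes fell in 13 of 35 and rose in 0 (20 and 0 under median-ratio scaling; 7 lower without div12_48_u replicate 1 or div12_48_d replicate 2 and 8 without div0 replicate 1 or 2), with a median of only -0.14, and Atp5k, a subunit of ATP synthase, fell by 0.43 ± 0.09 (adjusted p = 0.00762). Serine and one-carbon genes fell in 3 of 7 (5 under median-ratio scaling). Glycolysis had 3 members of 17 higher and 3 lower (2 and 4 under median-ratio scaling). In that list Aldoa, muscle-type aldolase, had 1618 and 1610.0 TPM in div12_48_u and 1609 and 1607 TPM in div12_48_d, against 1216 and 1208 TPM in div0 and 1052 and 927 TPM in div12 (0.56 ± 0.07, adjusted p = 0.00100). Gapdh, a later enzyme of the pathway, fell by 0.38 ± 0.09 (adjusted p = 0.00918), so the list did not move one way.

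Lists of protein production moved little. The counts below stand beside 12.1% lower and 25.8% higher over all tested genes. Ribosomal protein genes fell in 3 of 22 tested members and rose in 0, with a median of -0.05, and translation factors and tRNA synthetases fell in 5 of 27 and rose in 1 (13 and 0 under median-ratio scaling). The 5 falls became 1 without div12_48_u replicate 2, div12_48_d replicate 2 or div0 replicate 2 and 2 without div12_48_u replicate 1, div0 replicate 1 or div12 replicate 1, and the 3 ribosomal falls became 1 without div12_48_d replicate 2. Proteasome genes fell in 4 of 6 (6 under median-ratio scaling), each by less than 1.5-fold. Psmb3 led (-0.32 ± 0.06, adjusted p = 0.00320), while Psmc2 lost its call without any 1 of the 8 libraries and Psmc6 without any 1 but div12_48_d replicate 1, so that 2 falls were left in 7 of those 8 refits. Cytosolic chaperones fell in 6 of 18 (10 under median-ratio scaling), and the single rise was that of Hspb1, a small heat shock protein, with 7.47 ± 3.15 TPM in Phase II and 0.583 ± 0.372 TPM in Phase I (2.38 ± 0.19, adjusted p = 0.000158). Genes of the unfolded protein response and secretion had 2 members higher and 4 lower of 19 (1 and 8 under median-ratio scaling), with Ddit3 (CHOP), a stress-induced transcription factor, rising by 0.62 ± 0.11 (adjusted p = 0.00355) and Sdf2l1, an endoplasmic reticulum chaperone cofactor, falling by 0.61 ± 0.11 (adjusted p = 0.00410). Histone genes had 1 member higher and 3 lower of 31, but 0 lower without div0 replicate 1 or 2 and 1 without div12_48_u replicate 1, the rise being that of Hist1h1c, a linker histone (1.15 ± 0.30, adjusted p = 0.0166). Class II presentation genes had 0 of 7 tested members higher and 1 lower (H2-DMb1, -0.44 ± 0.10; 2 lower under median-ratio scaling). Class I presentation genes had 1 of 13 higher and 4 lower (0 and 7 under median-ratio scaling), and without single libraries 0 to 1 were higher and 1 to 4 lower, with 1 lower without div12_48_u replicate 1 or 2 and 2 without div12_48_d replicate 1, div0 replicate 1 or 2, or div12 replicate 1.

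The libraries were B cell libraries by their markers. Cd79a, part of the antigen receptor, had 6746 to 8540 TPM in Phase II and 6235 to 8571 TPM in Phase I, and the list of B cell markers had 2 members higher and 1 lower of 11 (1 and 2 under median-ratio scaling). T cell markers summed to 529 to 774 TPM in Phase II and to 272 to 296 TPM in Phase I, with 3 of 7 tested members higher and 2 lower. Most of that sum was Lck, a Src family kinase, with 403 ± 42.1 TPM in Phase II and 135 ± 12 TPM in Phase I (1.57 ± 0.06, adjusted p = 1.33e-05), and Cd2. The defining T cell gene Cd3e stayed at or below 0.345 TPM in every Phase II library and at or below 0.328 TPM in every Phase I library. Myeloid markers summed to 489 to 897 TPM in Phase II and to 307 to 557 TPM in Phase I, with 3 of 10 tested members higher and 2 lower. Most of this myeloid sum was Mpeg1, whose range overlapped, with 303 to 581 TPM in Phase II and 207 to 435 TPM in Phase I. Adgre1 (F4/80), the defining antigen of mouse macrophages, had 108 and 103 TPM in div12_48_u and 139 and 204 TPM in div12_48_d, against 34.4 and 30.0 TPM in div0 and 29.3 and 43.5 TPM in div12 (1.94 ± 0.17, adjusted p = 0.000223). The granulocyte gene S100a8 was listed at 0 in all 4 Phase II libraries and had 1.48 to 8.67 TPM in Phase I, and Lyz2, lysozyme of myeloid cells, had 0 to 9.34 TPM in Phase II and 2.78 to 78.4 TPM in Phase I. Cd68, a macrophage lysosomal glycoprotein, had 55.0 to 93.1 TPM in Phase II and 41.6 to 56.1 TPM in Phase I. Of the complement genes of macrophages, C1qa was listed at 0 in all 8 libraries and C1qb had 0 to 2.54 TPM in Phase II and 0 to 0.360 TPM in Phase I. Csf1r, Cd14 and Fcgr3 reached at most 0.158, 0.0998 and 0.541 TPM in Phase II. In Phase I they reached at most 1.98, 0.223 and 0.597 TPM. The members of this list thus went different ways. The Lyz2 call was lost without div12_48_u replicate 1 (adjusted p = 0.0830), div12_48_d replicate 1 (0.0632) or 2 (0.0554), div0 replicate 2 (0.0582) or div12 replicate 1 (0.0744). Apoe and lysosomal genes are also expressed by macrophages, and the part of other cells in these rises was not tested. Dendritic cell markers had 0 of 5 called, erythroid markers summed to 74.1 to 95.4 TPM in Phase II and to 70.5 to 91.0 TPM in Phase I, and 5 stromal genes were listed at 0 throughout.

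Since each phase holds undivided and divided cells, the phase difference was also read within each. Undivided cells alone gave 1020 called genes (24.6%), 669 higher in div12_48_u than in div0 and 351 lower. Divided cells alone gave 1012 (24.4%), 735 higher in div12_48_d than in div12 and 277 lower. All 1574 genes called over both had the same sign in the 2 strata, and 566 of them were also called in each. The shared sign was favoured in advance by the fit. Its balanced difference is the mean of the 2 stratum differences, and disagreement between them widens its error. Over the 4153 tested genes, 3174 had the same sign in both, and 6 genes were called in both with opposite signs. The correlation of the 2 phase differences across genes was 0.644, a description over genes that are not independent replicates.

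A test of the difference itself, undivided minus divided, called 35 genes (0.843%), 25 negative and 10 positive, with 591 at an unadjusted p under 0.05. This count was less stable than the phase counts under the alternatives run, and limma called 0 when div12_48_d replicate 2, div0 replicate 1 or div0 replicate 2 was left out (534, 490 and 341 at an unadjusted p under 0.05). It called 3 without div12_48_u replicate 2, 7 without div12 replicate 1, 14 without div12 replicate 2 and 15 without div12_48_u replicate 1. Jchain differed most among the genes named, with a phase difference of 0.81 ± 0.33 in undivided cells and 4.94 ± 0.33 in divided cells. Cd9, a tetraspanin of B1, marginal zone and plasma cells, had 234 and 304 TPM in div12_48_d and 68.0 and 80.7 TPM in div12_48_u, against 57.1 and 61.0 TPM in div12 and 59.0 and 56.6 TPM in div0. The cells that divided again stood far above the other groups, and div12_48_u was slightly above both Phase I groups. Gcnt1, a glycosyltransferase that branches O-glycans, had 67.7 and 64.1 TPM in div12_48_u against 43.9 and 41.4 TPM in div0, and 21.0 and 21.3 TPM in div12_48_d against 36.5 and 35.5 TPM in div12. Its values thus went opposite ways in the 2 strata, and it showed no phase difference in the balanced fit (-0.06 ± 0.24, adjusted p = 0.855). The call of the difference between strata was lost for Gcnt1 without div12_48_d replicate 2 (adjusted p = 0.0645), div0 replicate 1 (0.0573) or div0 replicate 2 (0.127). For Cd9 it was lost without those libraries (0.0645, 0.0573 and 0.127) and without div12_48_u replicate 2 (0.0519) or div12 replicate 1 (0.0518). For Jchain it was lost without those of Gcnt1 (0.0887, 0.0573 and 0.127) and without div12_48_u replicate 1 (0.0572) or 2 (0.0546).

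**Figure D5:**
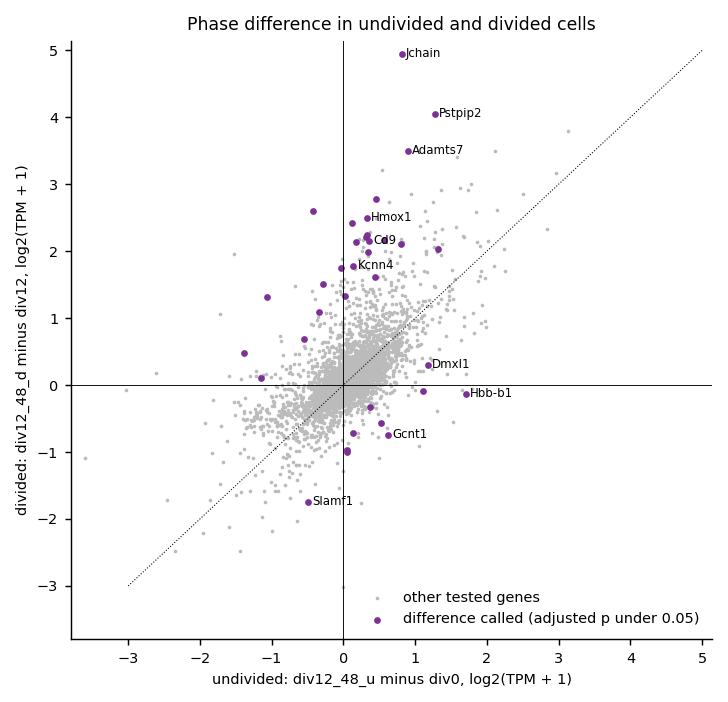
Phase difference in divided cells (div12_48_d minus div12, vertical axis) against that in undivided cells (div12_48_u minus div0, horizontal axis), both on the log2(TPM + 1) scale, for 4153 genes. Purple points are the 35 genes whose difference between the strata was called, and most of them lie above the dotted line of equal change.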

How the data were processed

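RNA was measured in 10 libraries of splenic B cells, of which 8 enter the comparison. Per the labels' protocols, ribosomal RNA was depleted and libraries were read as 50 bp single ends on a NextSeq 500. The tools DESeq2, featureCounts, HISAT2, HTSeq and Salmon and the build mm10 are listed in the submitters' processing notes with no roles, and strand use is not given in the sources used here. The authors deposited TPM values per transcript. TPM keeps no read depth, so the depth behind a value is unknown and no counting interval is given. Of 13128 transcripts with values, 63 had no usable symbol and 13065 were summed into 6610 genes. The transcripts of this table sum to 1000000 TPM in each library.

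The 4153 genes that reached 1 TPM in 2 or more of the 8 libraries were fitted on the log2(TPM + 1) scale with limma (version 3.58.1, R version 4.3.3), using a mean-variance trend, phase as the tested term and division as a block (5 residual degrees of freedom). p-values were adjusted by Benjamini-Hochberg over all tested genes. A fit of the 4 group means (4 residual degrees of freedom) gave the differences within undivided and divided cells and their difference. The code was tested on simulated data. Tables were made in Python 3.11.15 with pandas 2.3.3. Genes named are the 12 largest rises and falls among called genes with at least 10 TPM in the higher phase and phases that do not overlap. Added were up to 4 called members, by size of change, of each of the 45 lists (of 48) with at least 3 tested members. Where none was called, up to 2 of the most abundant were named. So were 8 preset cell cycle and fate genes, and the 4 genes with the smallest p each way in the test between strata. Cd2, Cd3e, Cd79a, C1qa, Gbp3, Socs1, Stat2 and other genes named outside the rule were chosen after their values were seen. The members and lists were chosen with earlier results of these data known. Promoters were taken from RefSeq for GRCm38.p6, and 3244 of 4153 tested genes had a window. Alternatives covered the pseudocount, the filter, the scaling, the variance trend, the blocks, the libraries fitted and a fold threshold.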

Additional observations from a re-analysis of the deposited data

Results flagged for a closer look

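In 10 of the genes named, the phase difference itself differed between undivided and divided cells by an interaction term (limma, Benjamini-Hochberg adjusted over all genes). Values are undivided minus divided on the log2(TPM + 1) scale. Negative values, where the phase difference was the higher one in divided cells, were found for Jchain (-4.13 ± 0.47, adjusted p = 0.0182), Pstpip2 (-2.78, adjusted p = 0.0154), Adamts7 (-2.60, adjusted p = 0.0406), Hmox1, heme oxygenase 1 (-2.17, adjusted p = 0.0182), Cd9 (-1.80, adjusted p = 0.0182) and Kcnn4, a calcium-gated potassium channel (-1.65, adjusted p = 0.0182). Positive values were found for Hbb-b1, a beta globin (1.84, adjusted p = 0.0200), Gcnt1 (1.36, adjusted p = 0.0154), Slamf1 (1.26, adjusted p = 0.0394) and Dmxl1, a regulator of the vacuolar proton pump (0.87, adjusted p = 0.0335).

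None of the 10 calls held in all 8 refits that left out 1 library. Gcnt1 kept its call in 5 of 8, Pstpip2, Hmox1 and Hbb-b1 in 4, Jchain, Cd9 and Kcnn4 in 3, Adamts7 and Slamf1 in 1 and Dmxl1 in 0. The signs did not change in these refits, in which the difference ranged from -4.72 to -3.55 for Jchain and from 1.32 to 1.40 for Gcnt1.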

How the results depend on the processing

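The fit with division as a block called 1574 genes. The total stayed within 1.5 times of that under pseudocounts of 0.1 and 5, other filters, both scalings, no variance trend, 4 group means, all 10 libraries and leaving out single libraries (1158 to 1447). It was 497 without the division block (377 higher, 120 lower), 1020 in undivided cells alone (669 higher), 1012 in divided cells alone (277 lower) and 80 against a fold of 1.5 (69 higher, 11 lower). Genes lower in Phase II numbered 858 under median-ratio scaling and 835 under quantile normalization, against 503. Summing was replaced by the most abundant transcript as an alternative chosen after seeing the data, which gave 1281. The replicate block gave 1423 calls, 955 higher and 468 lower, and 32 between strata; the labels do not pair the numbers, and same-numbered libraries correlated between -0.252 and 0.208 by pair of groups. The count of genes differing between strata (35) was 15 with a pseudocount of 0.1, 58 with 5, 0 with no filter (731 at an unadjusted p under 0.05), 72 under median-ratio scaling, 63 under quantile normalization, 9 with all 10 libraries, 15 with the most abundant transcript and 0 to 34 without single libraries. Signs turned for genes that were not called. Ccnd2 had -0.073 under median-ratio scaling, -0.052 under quantile normalization, -0.23 in undivided cells alone and -0.079 to 0.116 without single libraries. Gcnt1 had 0.62 in undivided cells alone and -0.215 to 0.082 without single libraries. Hbb-b1 had -0.13 and Ly6d 0.042 in divided cells alone. Of 172 called genes named by the rule, 33 lost the call without at least 1 library. The cause of these changes was not tested. With 2 libraries per group and no depth, small differences and low genes are the least certain.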

Other observations

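Further members of the lists gave these values. Ripk3, the kinase of necroptosis, had 87.2 and 86.1 TPM in div12_48_u and 52.6 and 54.8 TPM in div12_48_d, against 127 and 127 TPM in div0 and 97.1 and 92.7 TPM in div12 (-0.68 ± 0.07, adjusted p = 0.000355). All Phase II libraries were below all Phase I libraries. Casp6, an executioner caspase, rose by 0.58 ± 0.09. Rbpj, the DNA-binding partner of Notch, had 109 ± 17.6 TPM in Phase II and 62.7 ± 6.40 TPM in Phase I (0.78 ± 0.11, adjusted p = 0.00127). Cd27, a TNF family receptor of memory B cells, had 26.8 ± 3.62 TPM in Phase II and 15.2 ± 3.54 TPM in Phase I (0.80 ± 0.17, adjusted p = 0.00687). Bcl2a1a, an anti-apoptotic BCL2 relative, had 931 ± 60.2 TPM in Phase II and 1341 ± 205 TPM in Phase I (-0.51 ± 0.09, adjusted p = 0.00369).

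Resting B cell identity genes rose in 3 of 17 tested members and fell in 3 (3 and 7 under median-ratio scaling). Ccr7, a homing receptor for lymph nodes, had 309.7 ± 45.5 TPM in Phase II and 207 ± 37.7 TPM in Phase I (0.58 ± 0.12, adjusted p = 0.00659). Genes of the TCA cycle fell in 2 of 13 and rose in 0 (5 and 0 under median-ratio scaling), with Idh1, isocitrate dehydrogenase, at -0.63 ± 0.10 (adjusted p = 0.00267). Platelet markers rose in 2 of 3 tested members and fell in 1, and stromal markers rose in 0 of 2 and fell in 1. The single tested member of the natural killer list and that of the RAG and pre-B list were not called.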
